A study of Homo sapiens with 4 samples.

Results

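The high-mobility group (HMG) genes encode the small architectural proteins of chromatin, and 10 of them were followed here, HMGB1, HMGB2 and HMGB3, HMGA1 and HMGA2, and HMGN1 to HMGN5. They were chosen by name, as the genes of the 3 HMG families on the primary chromosomes, and were found as 10 of the 63677 genes in the count files. All 10 passed the filter on low counts. The question was whether the 9 other HMG genes change, and in particular whether any of them rises, when HMGB1 is depleted.

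IMR90 are fetal human lung fibroblasts, a normal diploid cell line that divides a limited number of times. The 2 isolates used, I90-10 and I90-79, were both at passage 5. Each isolate was transfected once with a non-targeting control (NTC) siRNA and once with siRNA against the HMGB1 mRNA (HMGB1 KD), using the lipid reagent RNAiMAX, and polyadenylated RNA was sequenced after 72 h. Thus each group held 2 libraries, 1 from each isolate, and nothing else was done to either group. The methods name 2 different siRNAs for IMR90, without saying which cells received which, so a response to the loss of HMGB1 and a response to the siRNA itself cannot be told apart. Without a term for isolate, the p-values measure the change against the spread between isolates within a group. In fits with a term for each isolate, named below as the replicate block, they measure it against how far changes differ between the 2 isolates. In both kinds of fit this spread is largely shared over genes, as so few libraries say little about a single gene. A small p with the block is therefore no measure of how well the isolates agreed in that gene. The standard error (SE) with the block was 0.13 for HMGN3, with isolate changes of −1.27 and −1.31 log2. For HMGB3, with 0.16 and −0.27, it was 0.12.

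The libraries held between 29861687 and 35317010 reads assigned to genes. Levels are given as CPM, the reads of a gene scaled to a common library size after correction by the trimmed mean of M-values (TMM), and, where genes are compared with each other, as RPKM, the CPM per kilobase of merged exons. As markers of the labelled cell type, all 10 fibroblast genes checked (among them COL1A1, COL1A2, VIM and PDGFRA) passed the filter, at summed levels of 23996 to 45839 CPM in controls and 25086 to 39337 CPM in HMGB1 KD. None of the 10 passed the thresholds for a call (edgeR, adjusted p under 0.01 and an absolute log2 fold change above 0.6), beside 0.201% of all genes tested. At an unadjusted p under 0.05, 2 passed, beside 28.3% of all genes. With the isolate as a replicate block, the matrix protein FN1, the surface protein THY1 and the receptor PDGFRB were called lower. The proteoglycan LUM was called higher. Their mean levels were 0.572, 0.518, 0.604 and 1.73 times those of controls. Over all genes tested, 7.84% were called lower and 6.68% higher with the block. The groups overlapped in FN1, THY1 and PDGFRB but not in LUM. The 7 markers of blood, endothelial and epithelial cells found in the files summed to between 0.60 and 0.83 CPM in every library, and CDH5 and KRT5 were at 0 in all 4. In bulk RNA, fewer cells of a type and less RNA per cell cannot be told apart.

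HMG proteins are among the most abundant non-histone proteins of the nucleus and bind DNA or nucleosomes with little preference for sequence. HMGB proteins carry a pair of HMG boxes that bend DNA, HMGA proteins hold the minor groove of AT-rich DNA with AT-hooks, and HMGN proteins bind the nucleosome core and compete with the linker histone H1 for chromatin. In fibroblasts, HMGB1 and HMGB2 are known to be lost from nuclei on the path to senescence, whereas HMGA proteins are known to accumulate in the heterochromatin foci of senescent cells.

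In control cells the transcripts of these 10 genes differed widely in level. HMGA1 led, at 503 ± 137 RPKM (mean ± SD, n = 2), followed by HMGN2 at 70.9 ± 14.9, HMGN1 at 45.2 ± 2.19 and HMGB1 at 35.9 ± 6.77 RPKM. Next came HMGN4 at 35.1 ± 0.345, HMGB2 at 31.7 ± 10.3, HMGN3 at 25.5 ± 2.18 and HMGA2 at 25.1 ± 6.92 RPKM. HMGB3 stood at 14.0 ± 2.73 and HMGN5 was last at 1.65 ± 0.400 RPKM. The ranges of the 2 control libraries overlapped between neighbours from HMGB1 through HMGN4, HMGB2 and HMGN3 to HMGA2, so that the order of these neighbours cannot be read. Genes further apart were separated, as both HMGB1 and HMGN4 lay above HMGN3 and HMGA2 in both control libraries. The middle of the order also depends on the length used, because the merged exons of HMGA2 span 14808 bases and its canonical transcript 4117. Per kilobase of canonical transcript HMGA2 stood 4th, at 90.3 CPM in controls, and HMGB1 6th, at 38.3.

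**Figure D1:**
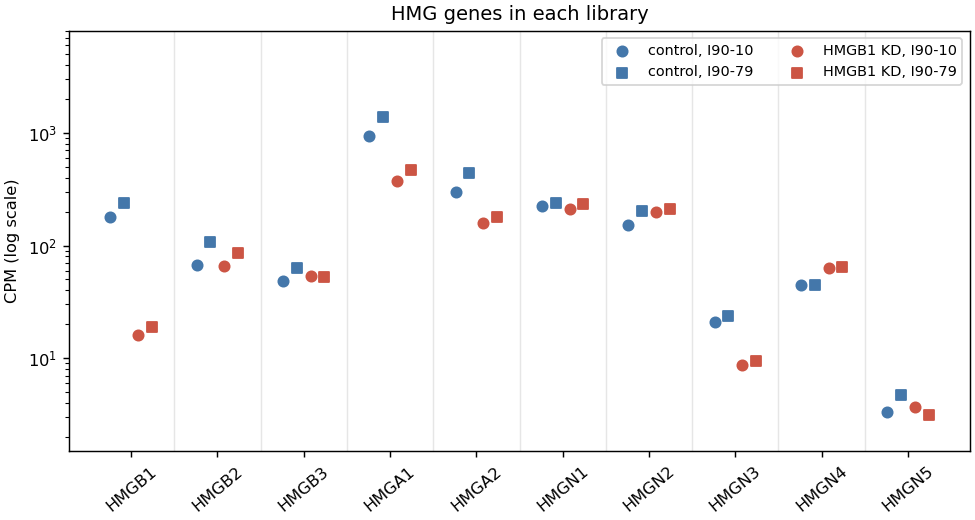
CPM on a log scale of the 10 HMG genes in each of the 4 libraries, with circles for isolate I90-10, squares for isolate I90-79, blue for NTC control and red for HMGB1 KD. HMGB1, HMGA1, HMGA2 and HMGN3 lie lower in both HMGB1 KD libraries than in both controls, HMGN4 lies higher, and the groups of the other 5 genes overlap.

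HMGB1 itself, the targeted gene (chr13:31032884-31191734, minus strand, hg19), was measured at 181 and 237 CPM in the control libraries of I90-10 and I90-79, and at 15.96 and 18.9 CPM in the HMGB1 KD libraries. The groups were far apart and the isolates moved together, by −3.50 log2 in I90-10 and −3.65 in I90-79. HMGB1 fell by 3.59 on the log2 scale (SE 0.19, 95% interval −4.07 to −3.10, adjusted p = 0.0075), a mean level 12.0-fold lower than in controls. This p comes from edgeR's quasi-likelihood test with Benjamini-Hochberg adjustment over the 15398 genes tested, as do all adjusted p-values below unless another tool is named. A gene was called when its adjusted p was under 0.01 and its absolute log2 fold change above 0.6, and 0.201% of all genes tested were called in either direction. HMGB1 lost its call when either HMGB1 KD library was left out, where no gene at all was called. Its change was −3.47 log2 without that of I90-10 and −3.71 without that of I90-79.

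HMGB1 was the only one of the 10 genes called. Of the 9 others, 0 were called lower, where 0.136% of all genes were, and 0 were called higher, where 0.0649% were. At an unadjusted p under 0.05, which 28.3% of all genes reached, 4 of the 9 passed, HMGA1, HMGA2 and HMGN3 lower and HMGN4 higher. The count of calls changed with the isolate term, the tool, the filter and the threshold. With isolate as a replicate block, 3 of the 9 were called lower (HMGA1, HMGA2 and HMGN3), beside 7.84% of all genes, and 0 higher, beside 6.68% (14.5% in either direction). DESeq2 called the same 3 lower and 0 higher (5.31% and 4.73% of all genes, 10% in all), and so did RUVs followed by DESeq2 (5.39% and 4.96%, 10.3% in all). The groups did not overlap in 4 of the 9 genes, 3 lower and 1 higher, beside 30.2% of all genes lower, 29.8% higher and 59.9% in either direction. At an adjusted p under 0.05, with the same fold change, the same 3 genes were lower and 0 were higher, beside 4.34% and 3.73% of all genes and 8.07% in either direction.

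**Figure D2:**
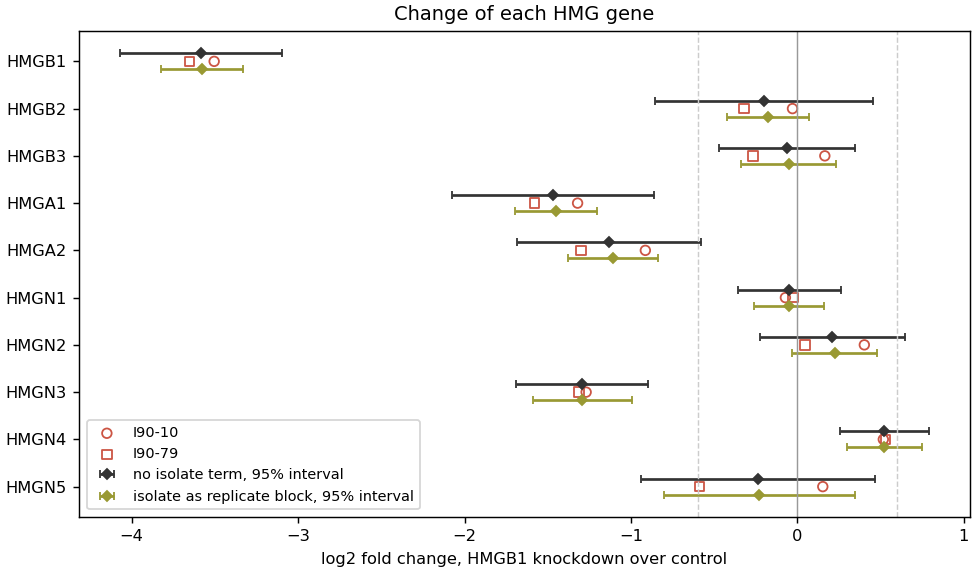
Log2 fold change of each HMG gene, HMGB1 KD over control, with the change in isolate I90-10 (open circles) and I90-79 (open squares), and the edgeR estimate with its 95% interval without an isolate term (black) and with isolate as a replicate block (olive). Dashed lines mark the fold change of 0.6 on the log2 scale needed for a call, and HMGB1, HMGA1 and HMGN3 have whole intervals below it in both fits.

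The paralogs closest to HMGB1 were not called higher in any fit. Their joint estimates were positive only without the control library of I90-79, at 0.17 log2 for HMGB2 and 0.14 for HMGB3. HMGB2, an HMG-box protein enriched in dividing cells, was measured at 67.6 and 108 CPM in controls and at 66.3 and 86.6 CPM in HMGB1 KD. I90-79 stood above I90-10 in both groups, and the groups overlapped. Its change was −0.20 log2 (SE 0.26, 95% interval −0.86 to 0.45, adjusted p = 0.652), so a rise above 0.45 lies outside the interval, and with the replicate block the upper bound was 0.07. RUVs followed by DESeq2 gave −0.46 (adjusted p = 0.0222), still short of a call. The summed CPM of 16 proliferation genes was 730 and 1289 in controls and 798 and 951 in HMGB1 KD. Like HMGB2 it was higher in I90-79 than in I90-10 in both groups and lower in HMGB1 KD than in the control of I90-79, but in I90-10 it was higher in HMGB1 KD where HMGB2 was not, and its part in the values of HMGB2 was not tested.

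HMGB3, the X-linked paralog known from blood progenitors, was measured at 48.0 and 63.3 CPM in controls and at 53.8 and 52.6 CPM in HMGB1 KD. Both HMGB1 KD libraries lay between the 2 controls. The isolates went opposite ways, 0.16 log2 in I90-10 and −0.27 in I90-79, and the joint change was −0.07 (SE 0.16, 95% interval −0.47 to 0.34, adjusted p = 0.828).

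The HMGB pool as a whole therefore became smaller and changed in makeup. The 3 HMGB genes summed to 67.6 and 95.6 RPKM in controls and to 40.2 and 47.7 RPKM in HMGB1 KD, a ratio of means of 0.539. No test was made on sums, since an exact two-sided permutation test of 2 libraries against 2 cannot go below 0.333. HMGB1 made up 46.0% and 42.5% of the HMGB sum in controls and 6.82% and 6.78% in HMGB1 KD. HMGB2 went from 36.1% and 40.8% of the sum to 59.4% and 65.4%. This larger share of HMGB2 came without a higher level, as HMGB2 and HMGB3 together summed to 36.5 and 54.9 RPKM in controls and 37.4 and 44.5 RPKM in HMGB1 KD.

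Both HMGA genes lay below their control levels in both isolates. HMGA1 (chr6:34204650-34214008, plus strand), which codes for the AT-hook protein of dividing and embryonic cells, was measured at 944 and 1397 CPM in controls and at 378 and 467 CPM in HMGB1 KD. The groups did not overlap, and both isolates were lower, by −1.32 log2 in I90-10 and −1.58 in I90-79. Without an isolate term its change was −1.47 (SE 0.24, 95% interval −2.08 to −0.86, adjusted p = 0.0303), which misses the threshold. With the replicate block HMGA1 fell by 1.45 on the log2 scale (SE 0.11, adjusted p = 8.6e-05).

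HMGA2 (chr12:66217911-66360075, plus strand), the HMGA protein of embryonic tissues and mesenchymal tumours, was measured at 299 and 444 CPM in controls and at 159 and 180 CPM in HMGB1 KD. Again the groups did not overlap, with changes of −0.91 log2 in I90-10 and −1.30 in I90-79. Its change was −1.13 (SE 0.22, 95% interval −1.68 to −0.58, adjusted p = 0.0430) without an isolate term, and HMGA2 fell by 1.11 on the log2 scale with the replicate block (SE 0.12, adjusted p = 0.00036). Of its counted bases, 2.59% lie opposite the antisense gene HMGA2-AS1, which had only 23 and 33 reads in controls and 32 and 49 in HMGB1 KD. Summed over both genes, HMGA transcripts stood at 426 and 630 RPKM in controls and at 173 and 213 RPKM in HMGB1 KD, a ratio of means of 0.366, and HMGA1 made up at least 93.8% of the sum in every library.

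The 5 HMGN genes did not move together. HMGN3 (chr6:79910962-79944406, minus strand), a nucleosome-binding protein known for its expression in brain, eye and pancreatic islets, was measured at 20.9 and 23.6 CPM in controls and at 8.66 and 9.48 CPM in HMGB1 KD. The groups did not overlap, and the isolates gave nearly the same change, −1.27 log2 in I90-10 and −1.31 in I90-79. HMGN3 changed by −1.29 (SE 0.16, 95% interval −1.69 to −0.90, adjusted p = 0.0169) without an isolate term, short of a call, and fell by 1.29 on the log2 scale with the replicate block (SE 0.13, adjusted p = 0.00030). The antisense gene HMGN3-AS1 covers 16.5% of its counted bases. That gene had 36 and 75 reads in controls and 17 and 35 in HMGB1 KD, and as the strand setting of the counting is not given in the sources used here, reads from the shared bases cannot be told apart.

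HMGN4, encoded by a gene without introns in its coding part and close in sequence to HMGN2, was the one member higher in both HMGB1 KD libraries than in both controls. It was measured at 44.4 and 45.0 CPM in controls and at 63.5 and 65.0 CPM in HMGB1 KD, so the groups did not overlap. The changes of 0.52 log2 in I90-10 and 0.53 in I90-79 were close to each other. Its joint change was 0.52 (SE 0.11, 95% interval 0.25 to 0.79, adjusted p = 0.0474), a mean level 1.44-fold that of controls. With the replicate block the adjusted p was 0.0050 but the change remained at 0.52, below the fold change needed for a call.

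HMGN1 and HMGN2, the nucleosome-binding proteins found in nearly all tissues, were not separated between groups. HMGN1 was measured at 223 and 239 CPM in controls and at 212 and 234 CPM in HMGB1 KD, a change of −0.05 log2 (95% interval −0.36 to 0.26, adjusted p = 0.832). HMGN2 was measured at 151 and 204 CPM in controls and at 200.1 and 211 CPM in HMGB1 KD. Only its control library of I90-10 stood apart, and the change was 0.21 (SE 0.17, 95% interval −0.23 to 0.64, adjusted p = 0.476). Without that library the change of HMGN2 was 0.00.

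HMGN5, an X-linked member with a long acidic tail, was the least abundant, at 3.30 and 4.67 CPM in controls and 3.67 and 3.11 CPM in HMGB1 KD. It changed by 0.15 log2 in I90-10 and −0.59 in I90-79, and the joint interval was the widest of the 10 genes, from −0.94 to 0.46 (change −0.24, adjusted p = 0.619). The HMGN sum was 164 and 193 RPKM in controls and 183 and 193 RPKM in HMGB1 KD. Within it, HMGN3 went from 14.6% and 14.0% to 5.44% and 5.63%, and HMGN4 from 21.2% and 18.4% to 27.3% and 26.4%.

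**Figure D3:**
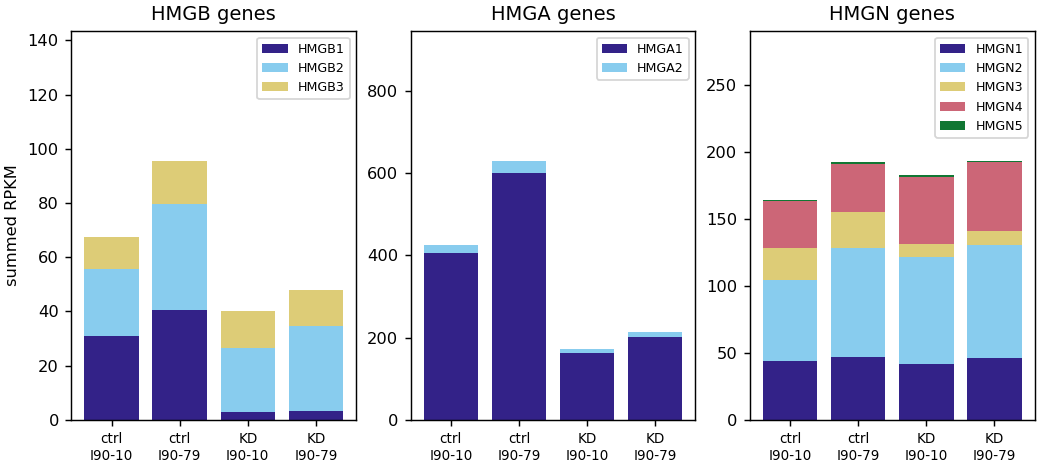
Summed RPKM of the HMGB, HMGA and HMGN genes in each library (ctrl, NTC control; KD, HMGB1 KD), with each gene as a coloured part of the bar and a separate linear axis for each family. The HMGB and HMGA bars of both HMGB1 KD libraries are shorter than those of both controls, while the HMGN bars lie between 164 and 193 RPKM in all 4 libraries.

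Over all 10 genes the sums were 658 and 918 RPKM in controls and 396 and 454 RPKM in HMGB1 KD. Most of this difference was HMGA1: without HMGB1 and HMGA1, the 8 other genes summed to 221 and 277 RPKM in controls and to 231 and 249.9 RPKM in HMGB1 KD, and these groups overlapped. As sums of CPM, without the division by length, the same 8 genes gave 858 and 1132 in controls and 767 and 842.5 in HMGB1 KD, where the groups did not overlap and I90-10 was lower instead of higher, so the comparison depends on the scale.

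Some of the reads behind these values cannot be assigned with certainty, since HMG genes have many processed pseudogenes. The annotation holds 156 of them on the primary chromosomes, 49 had at least 1 read and 8 passed the filter. Of all 50-base pieces of the annotated transcripts, 12.0% for HMGB1, 11.3% for HMGN2 and 7.31% for HMGA1 also occur in another gene, against none for HMGN3 and HMGN4. The pseudogenes of HMGB1 together held 8.81% and 8.56% as many reads as HMGB1 in controls, and 6.07% and 4.41% in HMGB1 KD. HMGB1P5 (chr3:22423310-22424420) had 269 and 423 reads in controls but 9 and 9 in HMGB1 KD. HMGB1P6 (chr15:71457109-71457754) had 170 and 269 reads in controls and 9 and 2 in HMGB1 KD. These copies moved with HMGB1, whereas HMGN2P5 (chr15:30022917-30023189), a copy of HMGN2, had 96 and 150 reads in controls and 111 and 133 in HMGB1 KD, like its parent.

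HMGB1P5 is 99.5% identical to HMGB1 over the 642 bases aligned around the coding sequence, and HMGB1P6 98.6% over 645. A read that covers no position at which they differ matches HMGB1 and a copy equally well. The paper states that unique counts were taken, so reads of this kind should be missing from HMGB1 and from its copies. With the counted reads of all copies added to HMGB1, its change was −3.63 log2 (adjusted p = 0.0081), but this does not restore the missing reads.

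Genes related to these families by domain or by role were compared as lists. Of 34 other genes with an HMG box, such as the mitochondrial DNA packaging factor TFAM and the SOX and TCF/LEF transcription factors, 28 passed the filter, 15 higher and 13 lower in HMGB1 KD, with a median change of 0.01 log2 beside −0.01 over all genes tested. None of the 28 was called, and 10 had an unadjusted p under 0.05, 5 in each direction, beside 28.3% of all genes tested. With the replicate block, 4 were called higher (HMGXB3, TFAM, LEF1 and SOX5) and 3 lower, among them HMGXB4 and HBP1. Over all genes tested, the shares with the block were 6.68% higher and 7.84% lower. HMGXB4, an HMG-box protein of the NURF remodelling complex, was measured at 69.6 and 72.5 CPM in controls and at 36.1 and 36.2 CPM in HMGB1 KD, with an adjusted p of 0.0144. HMGXB3, whose function is less clear, went the other way, from 88.6 and 92.8 CPM to 155 and 158 CPM (adjusted p = 0.0211).

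Linker histones occupy the DNA between nucleosomes, where HMG proteins compete with them. Most histone mRNAs lack poly(A) tails, and these libraries held polyadenylated RNA. Of 7 linker histone genes 3 passed the filter. None of the 3 was called and 1 had an unadjusted p under 0.05, beside 28.3% of all genes. H1-2 was measured at 9.29 and 11.9 CPM in controls and at 20.3 and 18.7 CPM in HMGB1 KD, a change of 0.87 log2 (adjusted p = 0.0501). It was called higher with the replicate block (adjusted p = 0.0040), as were 6.68% of all genes. H1-10, the variant H1X, changed by 0.26 (adjusted p = 0.320). The median of the 3 was 0.26.

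LIN28 proteins block the maturation of the let-7 miRNAs, and IGF2BP proteins bind and stabilise mRNAs that include HMGA2 in embryonic tissues. LIN28A and LIN28B did not pass the filter. The 3 IGF2BP genes were lower in HMGB1 KD, with a median change of −0.21. None of them was called and 1 had an unadjusted p under 0.05, which 28.3% of all genes reached. IGF2BP2 was measured at 177 and 131 CPM in controls and at 117 and 107 CPM in HMGB1 KD, a change of −0.46 (adjusted p = 0.158). IGF2BP1 changed by −0.21 (adjusted p = 0.289) and IGF2BP3 by −0.13 (adjusted p = 0.485).

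HMGB2 and HMGN2 are known to be higher in dividing cells, so 16 proliferation genes were set beside them. By their joint changes they split evenly, 8 higher and 8 lower, with a median of 0.03 log2. The 2 isolates moved the same way in only 6 of the 16. None was called and 1 had an unadjusted p under 0.05, beside 28.3% of all genes. PCNA, the sliding clamp of DNA polymerases, was measured at 90.1 and 121 CPM in controls and at 51.7 and 53.5 CPM in HMGB1 KD, a change of −1.01 (adjusted p = 0.0320), and was called lower with the replicate block. TYMS, which makes thymidylate for DNA synthesis, changed by 0.62 (adjusted p = 0.199) and was called higher with the block. Of all genes, 7.84% were called lower and 6.68% higher with it. MCM2, a subunit of the replicative helicase, changed by −0.59 (adjusted p = 0.214).

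HMGA2 is a textbook target of the let-7 miRNAs, which pair with its long 3′ UTR. The mature sequence of 1 member of that family, hsa-let-7a-5p, is given from RefSeq (GRCh38.p14), with the seed, bases 2 to 8, in capitals, because its complement CTACCTC was counted in the 3′ UTRs.
hsa-let-7a-5p: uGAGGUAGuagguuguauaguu
On the mRNA strand, CTACCTC occurs 4 times in the 3′ UTR of the canonical HMGA2 transcript, once in that of HMGA1 and in none of the 8 other members, and 11.5% of 12359 tested genes with a 3′ UTR of at least 100 bases hold it. Across all genes the median change was 0.00 log2 for 10942 genes with no copy, −0.02 for 1242 genes with 1 copy, −0.04 for 144 genes with 2 and 0.04 for 31 genes with 3 or more. HMGA2 thus lay far below the median of the genes with 3 or more copies.

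Another short word was counted in the same 3′ UTRs, GCAGTT on the mRNA strand. It was picked because, in these same libraries, genes that hold it were lower in HMGB1 KD, so the shifts given for it are a description and no test. It occurs 3 times each in HMGB1 and HMGA2, 2 times in HMGA1, once in HMGB2, HMGB3, HMGN2, HMGN3 and HMGN5, and not in HMGN1 or HMGN4. The copies of HMGB2 and HMGN2 lie beyond the end of the gene as counted. The 4 members with the lowest log2 changes all hold the word, but so do HMGB2, HMGB3, HMGN2 and HMGN5, whose groups overlapped. HMGN4, the only member higher in both HMGB1 KD libraries than in both controls, does not hold it. Neither does HMGN1, whose groups overlapped. The word is common, being held by 36.2% of the 12359 genes. The windows of 30 bases around the copies in HMGA1, HMGA2 and HMGN3 are shown with the word in capitals, followed by the first of the HMGB1 copies, since these are the members with the lowest log2 changes (GRCh37, mRNA strand).
HMGA1 at chr6:34212855-34212884, plus strand: gctgagtggggaGCAGTTttcccctggcct
HMGA1 at chr6:34213961-34213990, plus strand: ggtttcctatttGCAGTTacttgaataaaa
HMGA2 at chr12:66357092-66357121, plus strand: tctacctcagcaGCAGTTggatcttttgaa
HMGA2 at chr12:66358422-66358451, plus strand: ttctaatcatctGCAGTTctttttgtacac
HMGA2 at chr12:66359821-66359850, plus strand: agacgtttaactGCAGTTgactttctccct
HMGN3 at chr6:79911076-79911105, minus strand: tgaatttttcatGCAGTTtttctagagcaa
HMGB1 at chr13:31035464-31035493, minus strand: gttggttctagcGCAGTTttttttttcttg
The first copy in HMGA2 stands next to its first let-7 match, which is within the same window. Beyond the capitals, the flanks differ from site to site.

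Over all tested genes, the median change was 0.07 log2 for the 7882 genes without the word, −0.10 for 2714 genes with 1 copy, −0.22 for 1043 with 2 and −0.32 for 720 with 3 or more. Longer 3′ UTRs hold more copies, with median lengths of 886, 2197, 3509 and 5444 bases in these 4 classes. Among genes with 3′ UTRs of 1000 to 3000 bases, to which HMGA1, HMGA2, HMGB3, HMGN2 and HMGN4 belong, the medians were 0.06 for no copy, −0.12 for 1, −0.39 for 2 and −0.79 for 3 or more. Length still rose with copies within this range, with median lengths of 1635, 1901.5, 2122 and 2415 bases. HMGA1, with 2 copies in 1347 bases, and HMGA2, with 3 in 2999, lay below the medians of their classes. HMGN2, with 1 copy, lay above its class, and HMGN3, with 1 copy in 443 bases, lay far below the median of genes with 1 copy. The part of this word, or of either siRNA, in the lower levels of HMGA1, HMGA2 and HMGN3 was not tested.

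**Figure D4:**
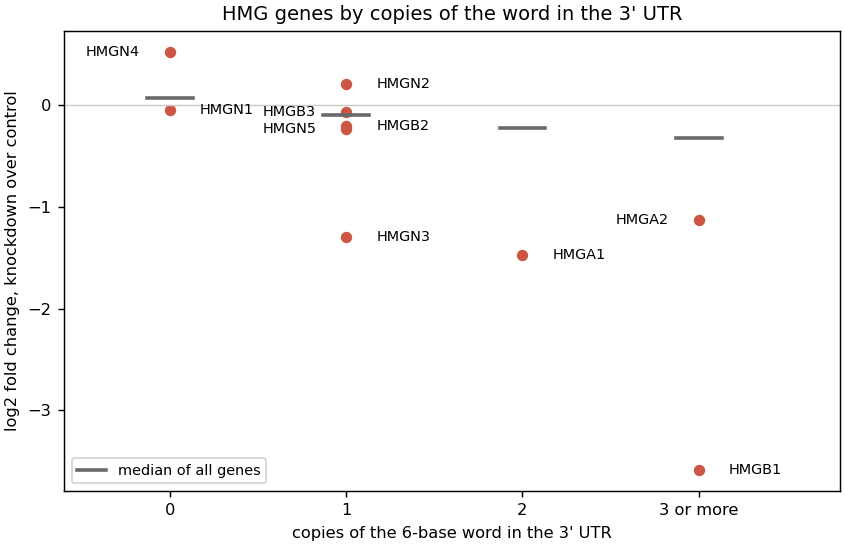
Log2 fold change, HMGB1 KD over control, of the 10 HMG genes (points) by the number of copies of the 6-base word in the 3′ UTR, with the median of all tested genes of each class as a grey bar. HMGB1, HMGA1 and HMGA2, with 2 or more copies, lie below the medians of their classes, where HMGB1 was the target of the siRNA. HMGN3 lies below the other HMG genes with 1 copy, and HMGN4, with none, lies highest of the HMG genes.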

How the data were processed

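The authors aligned reads to hg19 (GRCh37) with STAR and counted them per Ensembl gene with featureCounts, and deposited 1 table of raw counts per library; versions and strand setting are not given in the sources used here. Of 63677 gene IDs, 55665 were matched to a symbol; 5941 genes on patch contigs and the mitochondrial genome had 0 reads. Counts were filtered (filterByExpr, 15398 genes), scaled by TMM and tested with the quasi-likelihood test of edgeR 4.0.16 (R 4.3.3) without covariates, with Benjamini-Hochberg adjustment. DESeq2 1.42.0, RUVs with DESeq2, other scalings and filters, and the replicate block were alternatives. Replicate numbers mark the isolate in the labels, so they pair the samples; deviations of same-numbered libraries correlated at 0.46. The edgeR fits with and without the block, DESeq2 and RUVs with DESeq2 were tested on simulated counts, and the other steps were not. RPKM used the deposited gene lengths. Sequences came from GRCh37 with GENCODE v44lift37. The text names the members and, of each list and of the pseudogenes, the 3 genes with the smallest p or the largest mean CPM; further genes in the calls with the block were named after their values were seen. A few items that this rule selects are not reported here. Members and lists were chosen with earlier results of these data known.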

Additional observations from a re-analysis of the deposited data

Results flagged for a closer look

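The isolates moved in opposite directions in 2 of the 10 genes. The log2 change of HMGB3 was 0.16 in I90-10 and −0.27 in I90-79, a difference of −0.43 between isolates. That of HMGN5 was 0.15 in I90-10 and −0.59 in I90-79, a difference of −0.74. With 1 library per isolate and condition, neither difference was tested.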

How the results depend on the processing

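HMGB1 kept its direction throughout, from −3.77 to −3.38 log2 when 1 library was left out. Without either HMGB1 KD library (−3.47 and −3.71) it lost its call, and no gene at all was called there. The lone library is then assumed to vary like the other group. Signs turned when 1 library was left out for HMGB2 (−0.51 to 0.17), HMGB3 (−0.26 to 0.14) and HMGN5 (−0.47 to 0.030), positive only without the control of I90-79, and for HMGN1 (−0.13 to 0.021), positive only without HMGB1 KD of I90-10. The remaining members kept their signs, at −1.73 to −1.17 log2 for HMGA1, −1.40 to −0.83 for HMGA2 and −1.38 to −1.21 for HMGN3. HMGN4 gave 0.50 to 0.54 and HMGN2 0.00 to 0.43. Calls of members are not read from these fits, which leave 1 library in a group. With isolate as a replicate block, 3 of the 9 other members were called lower. So they were with no count filter, DESeq2, RUVs, DESeq2 with the block, and an adjusted p under 0.05. None was called higher under any alternative. In the same 6 settings 3 HMG-box genes were called lower; called higher were 4 with the block, 3 with no filter or DESeq2 with the block, and 2 with the others. Again in these settings, 1 linker histone was called higher (not at an adjusted p under 0.05), 1 proliferation gene was called lower (4 with RUVs), and 1 was called higher with the block in either tool or no filter. Over all genes, 31 were called without the block and 2235 with it. The HMGB ratio of 0.539 was 0.417 from CPM sums and 0.620 with canonical lengths (chosen after seeing the data). Leaving out 1 library gave 0.460 to 0.651 for HMGB, 0.306 to 0.453 for HMGA and 0.976 to 1.14 for HMGN, so the direction of the HMGN ratio rests on the controls. The length stratum of 1000 to 3000 bases was also chosen after seeing the data.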
